A study of Mus musculus with 16 samples.

Results

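The members are 44 nuclear genes of the mitochondrial respiratory chain and the tricarboxylic acid (TCA) cycle, chosen by gene name: 16 of complex I, 4 of complex II, 6 of complex III with cytochrome c, 5 of complex IV, 5 of complex V and 8 of the cycle. All 44 were on the array, out of 34741 named genes, and were read by 60 probes on 69 spots of each array. The brightest probe of a gene was used, and it lay well above background in 15 or 16 of the 16 arrays for every member.

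The RNA came from B cells of the spleens of AM14 mice, which carry an antigen receptor that recognises IgG. Spleen B cells of 4 genotypes were read, lacking both Tlr7 and Tlr9 (the double knockout), lacking Tlr9, lacking Tlr7, or WT, all carrying the AM14 receptor. Each genotype was sampled before stimulation (0 h) and at 3 later times, 6, 24 and 42 h. The stimulus was the chromatin-binding monoclonal IgG PL2-3. There was 1 array for each genotype and time, with no replicates. Tlr7 and Tlr9 encode endosomal receptors for RNA and DNA. On each array the sample carried Cy5 and a pool of unstimulated AM14 B-cell RNA of all 4 genotypes carried Cy3, so every level below is a log2 ratio of the sample to that pool. The number of mice behind an array, their age and the parts of Tlr7 and Tlr9 that were deleted were not stated in the labels.

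Complexes I to IV pass electrons from NADH and succinate to oxygen and, except for complex II, pump protons out of the mitochondrial matrix. Complex V, the ATP synthase, lets the protons back and makes ATP. The TCA cycle feeds the chain with NADH and, through succinate dehydrogenase, which is complex II itself, with electrons from succinate. Resting B cells use little of this capacity, and activated B cells are known to enlarge their mitochondria and raise oxidative metabolism.

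Between 37.4% and 62.7% of spots were well above background in Cy5, with the lowest share on the 0 h array of the Tlr9 knockout. That array also stood apart for single members (Cyc1, Atp5o, Sdhc and Cs), whose responses are given with and without the Tlr9 knockout. WT and the Tlr7 knockout shared a slide, and the Tlr9 knockout and the double knockout shared the other, so that loss of Tlr9 and the slide cannot be told apart. The Tlr7 knockout and the double knockout took the same row of their slides, so that loss of Tlr7 and the slide row cannot be told apart either. The 4 times always took the same 4 columns of a slide, and no cells were cultured without PL2-3, so PL2-3, time in culture and slide column cannot be told apart. Tlr7 signal (brightest probe) ranged from log2 -0.73 to 0.41 on arrays lacking the gene, against 0.32 to 1.71 on those keeping it, and the Tlr9 probe did not separate its arrays (-1.14 to 0.04 without the gene, -0.84 to -0.03 with it). The B-cell markers Cd79a, Cd79b, Ms4a1, Pax5, Cd22 and Blk were well above background on all 16 arrays.

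The response to PL2-3 was first read over the genotypes that keep at least 1 of the receptors, with WT, the Tlr7 knockout and the Tlr9 knockout standing in for replicates (12 arrays, limma with a genotype term and Benjamini-Hochberg adjustment over 22492 genes, threshold 0.05). Differences are given as log2 ± SE. At 24 h 38 of the 44 members were higher than at 0 h and 0 were lower. Across all genes 48.7% changed at that time, with 22.7% higher and 26% lower. The median difference was 0.68 on the log2 scale over the members and 0.01 over all genes tested. The members were chosen with earlier results of these data known, so their excess over all genes is not an independent result. Other nuclear subunits of the same complexes are given below. At 6 h 27 members were higher and 2 were lower (all genes 46.8% changed, 22.9% higher and 23.9% lower), with a median of 0.47. By 42 h 34 were higher and 0 lower (all genes 38% changed, 17.3% higher and 20.7% lower), with a median of 0.55. Without the Tlr7 knockout 20 members (all genes 9.34%) were higher at 42 h. At 24 h 28 were higher without the Tlr7 knockout (all genes 17.2%), 29 without WT (16.3%) and 38 without the Tlr9 knockout (27.6%). Single arrays gave much the same medians at 24 h: 0.65 in the Tlr9 knockout, 0.70 in the Tlr7 knockout and 0.68 in WT, each over its own 0 h array.

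**Figure D1:**
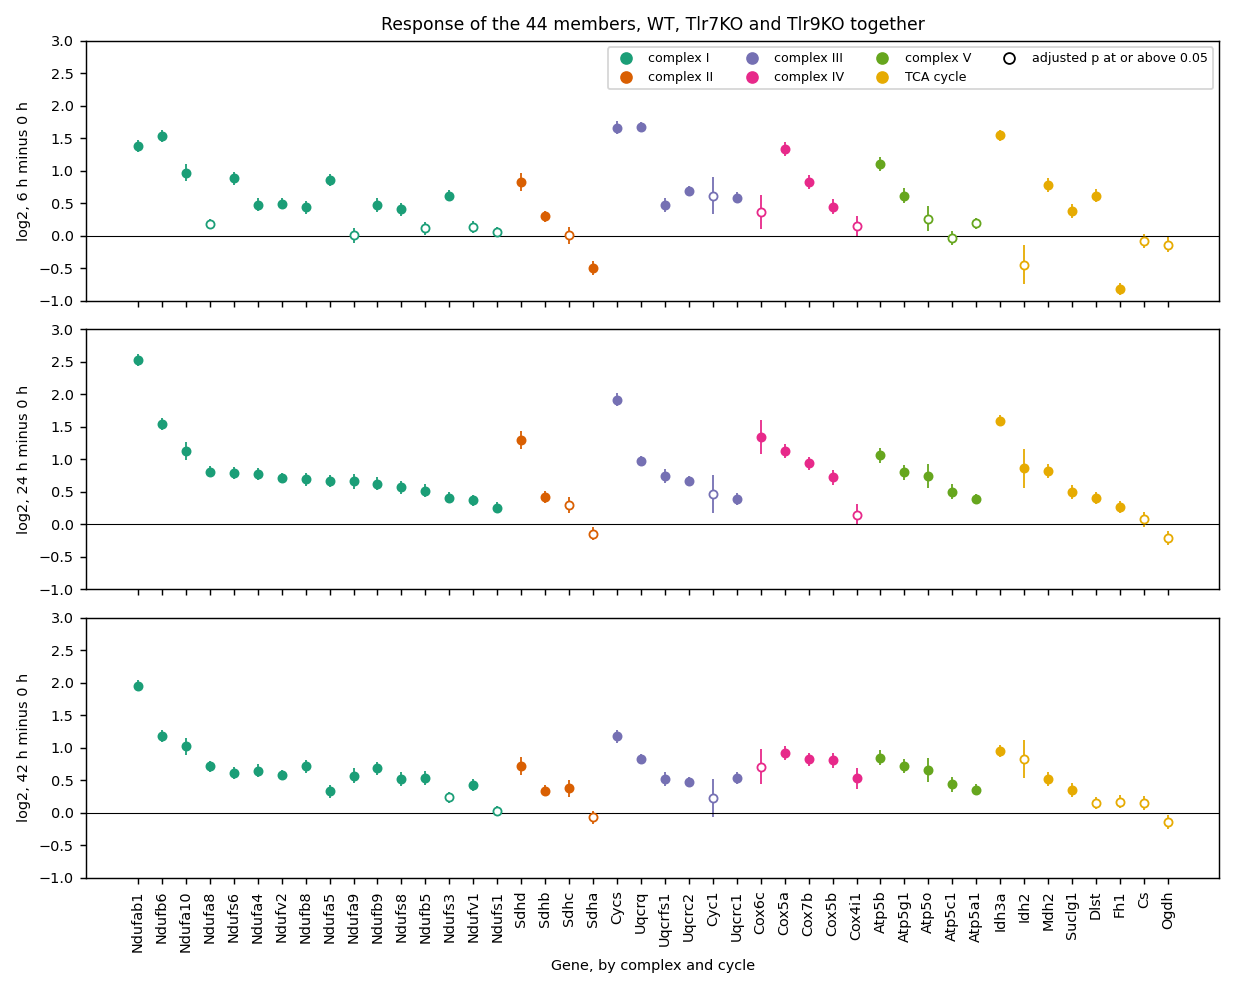
Response of each member at 6, 24 and 42 h over 0 h, as the log2 difference with its SE from the fit over WT, the Tlr7 knockout and the Tlr9 knockout, coloured by complex or cycle. Filled points passed an adjusted p of 0.05: 29 members at 6 h, 38 at 24 h and 34 at 42 h, and the only filled points below the line are Sdha and Fh1 at 6 h.

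The size of this shift rested on the normalisation. The members were bright, with a median mean log2 intensity of 13.1 against 7.84 for all genes tested, and the loess step sets the centre of each array at each intensity. With each array centred on its median in place of loess, the median at 24 h was 1.76 over the members and 0.227 over all genes, and 44 members were higher; with the scanner's processed signals it was 0.59, against -0.114 over all genes, and 25 were higher. In whole-culture RNA, fewer cells of a type and less RNA per cell cannot be told apart. Markers of other blood cells moved in the same arrays, since at 24 h 6 of 6 erythroid, 7 of 8 myeloid and 4 of 4 tested NK-cell markers were lower, and so were 7 of 7 B-cell markers, with medians of -3.06, -1.64, -1.36 and -2.31. Of 7 T-cell markers 4 were lower and 1, Lck, was higher. Across all genes 26% were lower and 22.7% higher at 24 h. Among the most abundant of these, Hba-a1 fell by 4.16 ± 0.44 at 24 h (difference -4.16, adjusted p = 4.85e-05). Its log2 Cy5 intensity ran from 17.17 down to 13.06 over the arrays, so it remained bright on every array. The part of these cells in the members' changes was not tested.

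**Figure D2:**
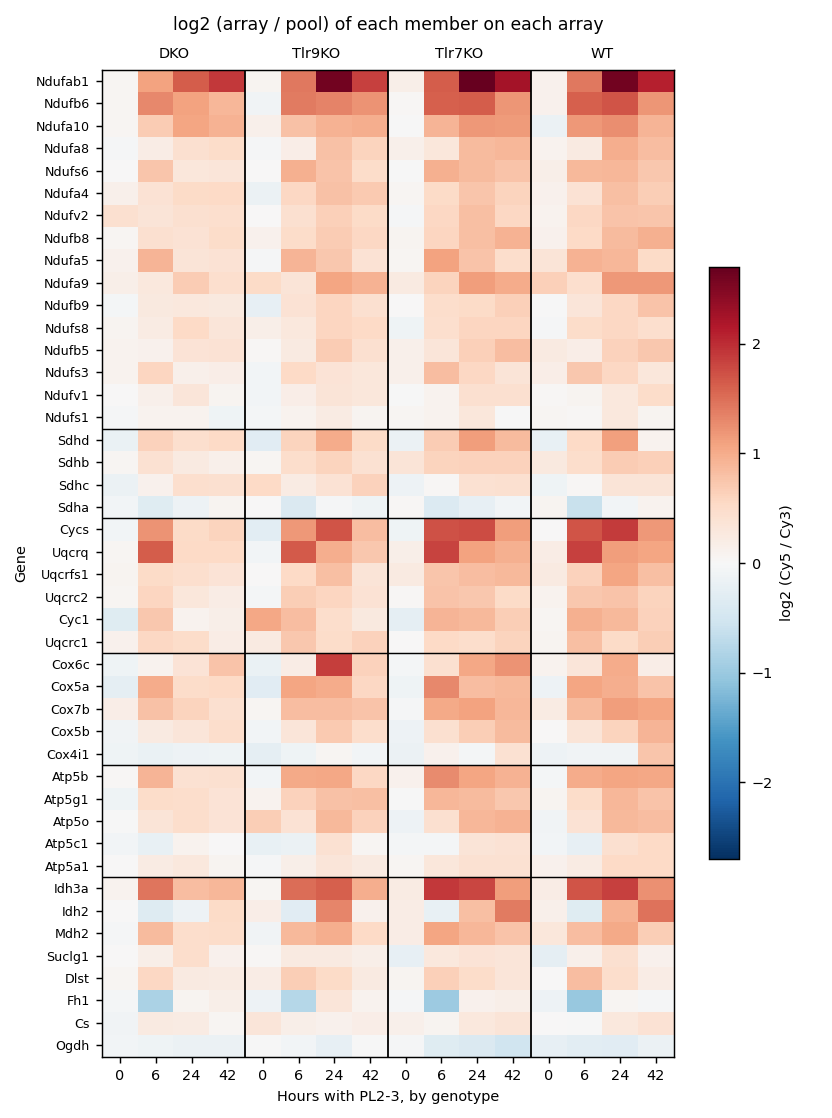
Level of each of the 44 members (rows, by complex or cycle) on each of the 16 arrays (columns, by genotype and hours with PL2-3), as the log2 ratio of the array to the pool. Most rows turn red after 0 h, least so in the double knockout, while Sdha and Ogdh stay pale or blue, Fh1 is blue at 6 h, and Cox4i1 is red at 42 h in the Tlr7 knockout and WT.

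Complex I is the NADH dehydrogenase that takes electrons from NADH. All 16 of its members were higher at 24 h, 11 were at 6 h and 14 at 42 h, with medians of 0.68, 0.48 and 0.60. Subunits of the complex outside the members are given below, and some of them were lower at 24 h. Ndufab1, the mitochondrial acyl carrier protein that is also a complex I subunit, had the largest response of all members. Its log2 levels at 0, 6, 24 and 42 h were 0.06, 1.08, 1.62 and 1.92 in the double knockout, 0.07, 1.42, 2.61 and 1.85 in the Tlr9 knockout, 0.15, 1.63, 2.72 and 2.26 in the Tlr7 knockout and 0.11, 1.41, 2.60 and 2.10 in WT. Every stimulated array lay above every 0 h array, and the double knockout was the lowest of the genotypes at 6 and 24 h. The difference from 0 h was 1.38 ± 0.09 (adjusted p = 2.42e-06) at 6 h and 2.53 ± 0.09 (adjusted p = 2.42e-07) at 24 h, a 5.78-fold rise. Ndufb6, an accessory subunit of the membrane arm, reached its level by 6 h. At 0, 6, 24 and 42 h it read 0.06, 1.29, 1.09 and 0.89 in the double knockout, -0.09, 1.40, 1.33 and 1.21 in the Tlr9 knockout, 0.02, 1.62, 1.63 and 1.19 in the Tlr7 knockout and 0.12, 1.62, 1.71 and 1.18 in WT. It was 1.53 ± 0.09 (adjusted p = 1.57e-06) above 0 h at 6 h and 1.54 ± 0.09 (adjusted p = 2.52e-06) at 24 h, and a second probe gave 1.52 at 24 h. The smallest 24 h response of the complex was that of Ndufs1, its largest iron-sulfur subunit, whose levels ran -0.02, 0.10, 0.10 and -0.11 in the double knockout, -0.05, 0.10, 0.22 and 0.07 in the Tlr9 knockout, 0.06, 0.09, 0.31 and -0.02 in the Tlr7 knockout and 0.05, 0.03, 0.29 and 0.08 in WT. They overlapped between 0 h and 6 or 42 h, and the difference at 24 h was 0.26 ± 0.08 (adjusted p = 0.0258), a call lost under 6 of the alternative settings. The cofactor-bearing core subunits Ndufs8, Ndufv1 and Ndufv2, the core subunit Ndufs3 and the accessory subunit Ndufs6 rose by 0.37 to 0.79 at 24 h. The accessory subunits Ndufa10, Ndufb8 and Ndufb9 rose by 1.13 ± 0.13, 0.69 ± 0.10 and 0.62 ± 0.10.

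Ndufa4, filed under complex I by its name and later assigned to complex IV, rose by 0.77 ± 0.10 (adjusted p = 1.60e-04). Ndufb5 rose by 0.52 ± 0.11 (adjusted p = 0.00256) on its brightest probe, while a dimmer probe of an Ensembl transcript gave -0.37 at that time. Timing differed within the complex. Ndufa8 and Ndufa9, accessory subunits of the complex, moved after 6 h: Ndufa8 was 0.18 ± 0.08 (adjusted p = 0.109) at 6 h and then gained 0.63 ± 0.08 (adjusted p = 6.36e-04) by 24 h, and Ndufa9 was 0.01 ± 0.11 at 6 h and gained 0.65 ± 0.11 (adjusted p = 0.00248). Ndufa5 and Ndufs3, which were named after their values were seen as were Ndufa8 and Ndufa9, were highest at 6 h, with 0.85 ± 0.10 and 0.62 ± 0.09, and stood at 0.33 ± 0.10 and 0.24 ± 0.09 at 42 h.

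The 4 subunits of complex II, succinate dehydrogenase, did not move together. Sdhd, a membrane anchor, rose by 1.30 ± 0.14 (adjusted p = 5.46e-05) at 24 h, and Sdhb, the iron-sulfur subunit, by 0.42 ± 0.09 (adjusted p = 0.00337). Sdhc, the other anchor, missed the threshold at 24 h with 0.30 ± 0.13 (adjusted p = 0.0843), and Sdha, the flavin-bearing catalytic subunit, was at -0.14 ± 0.10 (adjusted p = 0.295). At 0, 6, 24 and 42 h the Sdhd levels were -0.18, 0.62, 0.46 and 0.54 in the double knockout, -0.30, 0.61, 0.99 and 0.52 in the Tlr9 knockout, -0.16, 0.68, 1.13 and 0.85 in the Tlr7 knockout and -0.20, 0.54, 1.11 and 0.10 in WT. All stimulated arrays lay above all 0 h arrays, and the WT array at 42 h was far below that of the other genotypes with a receptor. For Sdhb the levels were 0.05, 0.41, 0.25 and 0.14 in the double knockout, 0.05, 0.48, 0.61 and 0.42 in the Tlr9 knockout, 0.34, 0.59, 0.61 and 0.62 in the Tlr7 knockout and 0.27, 0.47, 0.69 and 0.65 in WT, with the stimulated double knockout arrays at 24 and 42 h below the Tlr7 knockout at 0 h. Those of Sdhc were -0.15, 0.12, 0.46 and 0.43 in the double knockout, 0.53, 0.22, 0.40 and 0.63 in the Tlr9 knockout, -0.14, 0.03, 0.42 and 0.44 in the Tlr7 knockout and -0.11, 0.04, 0.36 and 0.35 in WT. Here the 0 h array of the Tlr9 knockout stood at 0.53, above its own stimulated arrays at 6 and 24 h, and without that genotype the 24 h difference was 0.51 with adjusted p = 0.00167. Sdha read -0.07, -0.33, -0.13 and 0.07 in the double knockout, 0.00, -0.39, -0.02 and -0.12 in the Tlr9 knockout, 0.04, -0.38, -0.22 and -0.08 in the Tlr7 knockout and 0.07, -0.60, -0.08 and 0.10 in WT. At 6 h all 4 genotypes were below their 0 h array, the difference was -0.49 ± 0.10 (adjusted p = 0.00345), and by 24 h Sdha had gained 0.35 ± 0.10 (adjusted p = 0.0311). Median centring turned the 6 h difference to 0.31 (adjusted p = 0.204), where the median over all genes was 0.225, and without WT it was -0.40 (adjusted p = 0.0552).

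Complex III passes electrons from ubiquinol to cytochrome c. Of its 5 members and cytochrome c, 5 were higher at each of the 3 times, and Cyc1 was not called at any while the Tlr9 knockout was in the fit. Cycs, the somatic cytochrome c that carries electrons to complex IV and also takes part in apoptosis, had the second largest response of all members. Its levels at 0, 6, 24 and 42 h were -0.08, 1.21, 0.52 and 0.60 in the double knockout, -0.29, 1.17, 1.70 and 0.84 in the Tlr9 knockout, -0.13, 1.72, 1.77 and 1.13 in the Tlr7 knockout and 0.02, 1.71, 1.89 and 1.17 in WT. All stimulated arrays lay above all 0 h arrays, and at 24 h the double knockout stood far below the others. The difference was 1.66 ± 0.10 (adjusted p = 1.49e-06) at 6 h and 1.92 ± 0.10 (adjusted p = 1.40e-06) at 24 h, a 3.78-fold rise, and between 24 and 42 h Cycs fell by 0.74 (adjusted p = 0.0133). Uqcrq, a small subunit of complex III, peaked early. It read 0.06, 1.63, 0.55 and 0.53 in the double knockout, -0.08, 1.65, 0.98 and 0.73 in the Tlr9 knockout, 0.16, 1.83, 1.08 and 0.96 in the Tlr7 knockout and 0.21, 1.84, 1.13 and 1.07 in WT at 0, 6, 24 and 42 h. The 4 arrays at 6 h were the highest and did not overlap with those of any other time. Uqcrq was 1.68 ± 0.08 (adjusted p = 4.49e-07) above 0 h at 6 h and changed by -0.71 ± 0.08 (adjusted p = 3.17e-04) from 6 to 24 h. It was the 1 member of 44 that fell over that step, where 11 rose (all genes 32.1% changed, 14.2% higher and 18% lower). The fall missed the threshold with median centring (-0.43, adjusted p = 0.0952).

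The core protein Uqcrc1 had the smallest 24 h response of the complex. Its levels were 0.12, 0.56, 0.50 and 0.21 in the double knockout, 0.24, 0.72, 0.50 and 0.63 in the Tlr9 knockout, 0.00, 0.53, 0.47 and 0.61 in the Tlr7 knockout and 0.06, 0.81, 0.51 and 0.66 in WT, and it rose by 0.39 ± 0.09 (adjusted p = 0.00525) at 24 h and 0.59 ± 0.09 (adjusted p = 4.54e-04) at 6 h. Uqcrc2, the other core protein, and Uqcrfs1, the Rieske iron-sulfur protein, rose by 0.67 ± 0.08 and 0.75 ± 0.11 at 24 h. Cyc1, cytochrome c1, was at 0.46 ± 0.29 (adjusted p = 0.224) at 24 h over the 3 genotypes. Without the Tlr9 knockout Cyc1 was called at all 3 times, with 1.03 (adjusted p = 9.05e-05) at 6 h, 0.98 (adjusted p = 1.37e-04) at 24 h and 0.74 (adjusted p = 9.08e-04) at 42 h. The 0 h array of the Tlr9 knockout read 1.04 for Cyc1, against -0.33 in the double knockout, -0.25 in the Tlr7 knockout and 0.06 in WT at 0 h.

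Complex IV, cytochrome c oxidase, hands the electrons to oxygen, and its nuclear subunits surround a core encoded by mitochondrial DNA. At 24 h 4 of 5 were higher, at 6 h 3 and at 42 h 4. Cox6c read -0.13, 0.10, 0.38 and 0.76 in the double knockout, -0.17, 0.21, 1.86 and 0.63 in the Tlr9 knockout, -0.05, 0.44, 1.05 and 1.21 in the Tlr7 knockout and 0.10, 0.32, 0.996 and 0.17 in WT at 0, 6, 24 and 42 h. The Tlr9 knockout at 24 h and the WT array at 42 h stood away from the other arrays of their times. The 24 h difference was 1.35 ± 0.27 (adjusted p = 0.00223), and at 6 h it was 0.36 ± 0.27 (adjusted p = 0.307). Cox5a, which rose with the early members, read -0.25, 1.004, 0.51 and 0.54 in the double knockout, -0.31, 1.07, 0.995 and 0.56 in the Tlr9 knockout, -0.11, 1.30, 0.84 and 0.87 in the Tlr7 knockout and -0.14, 1.06, 0.99 and 0.78 in WT. Each stimulated array was above every 0 h array, and the differences were 1.33 ± 0.10 (adjusted p = 6.69e-06) at 6 h and 1.13 ± 0.10 (adjusted p = 2.39e-05) at 24 h. Cox4i1, the common isoform of the largest nuclear subunit, stayed near its 0 h level until 24 h, with -0.11, -0.18, -0.13 and -0.12 in the double knockout, -0.23, -0.11, 0.05 and -0.08 in the Tlr9 knockout, -0.15, 0.12, -0.04 and 0.41 in the Tlr7 knockout and -0.13, -0.09, -0.09 and 0.74 in WT. Its difference was 0.14 ± 0.16 (adjusted p = 0.505) at 24 h and 0.53 ± 0.16 (adjusted p = 0.0285) at 42 h. At 42 h the Tlr7 knockout and WT arrays were high and the others were not, and the call was lost without the Tlr7 knockout, where the difference was 0.51 (adjusted p = 0.199), and without WT, where it was 0.36 (adjusted p = 0.184). Cox5b and Cox7b rose by 0.72 ± 0.11 and 0.94 ± 0.10 at 24 h.

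Complex V had all 5 members higher at 24 and 42 h, and 2 at 6 h. Atp5b, the catalytic beta subunit, read 0.03, 0.92, 0.42 and 0.42 in the double knockout, -0.07, 1.02, 1.04 and 0.56 in the Tlr9 knockout, 0.12, 1.28, 1.07 and 0.94 in the Tlr7 knockout and -0.05, 1.01, 1.07 and 1.05 in WT. All stimulated arrays exceeded all 0 h arrays, with the double knockout lowest at every stimulated time, and the differences were 1.101 ± 0.11 (adjusted p = 3.36e-05) at 6 h and 1.06 ± 0.11 (adjusted p = 5.20e-05) at 24 h. Atp5g1 encodes a copy of the c subunit of the proton-carrying ring, and its brightest probe read -0.11, 0.50, 0.48 and 0.38 in the double knockout, 0.10, 0.62, 0.79 and 0.82 in the Tlr9 knockout, -0.01, 0.90, 0.86 and 0.72 in the Tlr7 knockout and 0.07, 0.50, 0.90 and 0.78 in WT. That probe rose by 0.80 ± 0.11 (adjusted p = 2.53e-04) at 24 h. A second probe, of an Ensembl transcript of Atp5g1, fell by 1.38 at the same time, so that the mean over both probes was -0.29. Atp5a1, the alpha subunit, had the smallest response with 0.01, 0.21, 0.27 and 0.06 in the double knockout, -0.04, 0.15, 0.34 and 0.25 in the Tlr9 knockout, 0.04, 0.31, 0.41 and 0.41 in the Tlr7 knockout and 0.11, 0.22, 0.54 and 0.53 in WT and a difference of 0.39 ± 0.08 (adjusted p = 0.00331) at 24 h. Atp5c1, the gamma subunit that forms the rotating stalk, was named after its values were seen: it was -0.03 ± 0.11 (adjusted p = 0.841) at 6 h and gained 0.54 ± 0.11 (adjusted p = 0.00671) by 24 h. Atp5o, a subunit of the peripheral stalk, rose by 0.75 ± 0.19 (adjusted p = 0.0086) at 24 h, with the 0 h array of the Tlr9 knockout at 0.66. Without that genotype the difference was 1.01 (adjusted p = 3.81e-05), and at 6 h, where Atp5o was not called over the 3 genotypes, it was 0.52 (adjusted p = 0.0015).

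Members of the TCA cycle took several courses. At 24 h 6 of 8 members were higher, at 6 h 4 were higher and 1 lower, and at 42 h 3 were higher. Idh3a, the catalytic subunit of the NAD-linked isocitrate dehydrogenase, read 0.10, 1.45, 0.83 and 0.91 in the double knockout, 0.06, 1.52, 1.62 and 0.99 in the Tlr9 knockout, 0.23, 1.91, 1.81 and 1.13 in the Tlr7 knockout and 0.20, 1.70, 1.84 and 1.23 in WT at 0, 6, 24 and 42 h. Stimulated and 0 h arrays did not overlap. It rose by 1.55 ± 0.09 (adjusted p = 1.02e-06) at 6 h and 1.59 ± 0.09 (adjusted p = 1.73e-06) at 24 h, a 3.02-fold rise, and fell by 0.64 from 24 to 42 h (adjusted p = 0.0133). Idh2, the NADP-linked mitochondrial enzyme, took another course, with 0.01, -0.35, -0.14 and 0.52 in the double knockout, 0.17, -0.30, 1.33 and 0.12 in the Tlr9 knockout, 0.20, -0.21, 0.82 and 1.39 in the Tlr7 knockout and 0.14, -0.33, 0.94 and 1.47 in WT. It lay below 0 h in all 4 genotypes at 6 h, where the difference was -0.45 ± 0.30 (adjusted p = 0.261), and gained 1.31 ± 0.30 (adjusted p = 0.00936) from 6 to 24 h. At 42 h its arrays split, with the Tlr9 knockout at 0.12 and WT at 1.47. The 24 h response of Idh2, 0.86 ± 0.30 (adjusted p = 0.0379), was not called under 6 of the alternative settings. Ogdh, the first subunit of 2-oxoglutarate dehydrogenase, read -0.06, -0.12, -0.17 and -0.17 in the double knockout, -0.02, -0.07, -0.22 and -0.02 in the Tlr9 knockout, -0.04, -0.32, -0.38 and -0.53 in the Tlr7 knockout and -0.22, -0.30, -0.31 and -0.16 in WT. Its difference was -0.21 ± 0.11 (adjusted p = 0.154) at 24 h, and 2 dimmer probes gave -0.66 and 0.12. With median centring the Ogdh difference was 0.87, and averaged over its probes it was -0.25 (adjusted p = 0.0216).

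Fh1, fumarate hydratase, was the member with the largest fall, and was named for it after its values were seen. It read -0.06, -0.86, 0.07 and 0.16 in the double knockout, -0.14, -0.77, 0.33 and 0.09 in the Tlr9 knockout, -0.02, -0.98, 0.12 and 0.15 in the Tlr7 knockout and -0.14, -1.02, 0.05 and -0.02 in WT at 0, 6, 24 and 42 h. The 4 arrays at 6 h were the lowest and overlapped with no others. The 6 h difference was -0.82 ± 0.09 (adjusted p = 6.41e-05), and Fh1 then gained 1.09 ± 0.09 (adjusted p = 1.07e-04) by 24 h. At 24 h it was 0.27 ± 0.09 (adjusted p = 0.0384) above 0 h, and 0.17 (adjusted p = 0.159) without the Tlr9 knockout. With median centring the 6 h difference was 0.00 (adjusted p = 0.997), and it ran from -0.76 to -1.05 under the other settings. Mdh2, the malate dehydrogenase, rose by 0.82 ± 0.11 (adjusted p = 2.02e-04) at 24 h, and Dlst and Suclg1, which handle the succinyl steps, by 0.40 ± 0.09 and 0.50 ± 0.11. Cs, citrate synthase, which opens the cycle, was at 0.08 ± 0.11 (adjusted p = 0.623) at 24 h, with the 0 h array of the Tlr9 knockout at 0.33. Without that genotype it was 0.22 (adjusted p = 0.085) at 24 h and 0.30 (adjusted p = 0.0322) at 42 h. Within the cycle the estimates at 24 h were above 0.80 for Idh3a, Idh2 and Mdh2, while Cs and Ogdh were not called. Differences between genes were not tested, and 1 subunit does not stand for a whole step. Idh3b and Idh3g, partners of Idh3a that are not members, were not called, with 0.22 ± 0.12 (adjusted p = 0.144) and 0.07 ± 0.10 (adjusted p = 0.585).

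**Figure D3:**
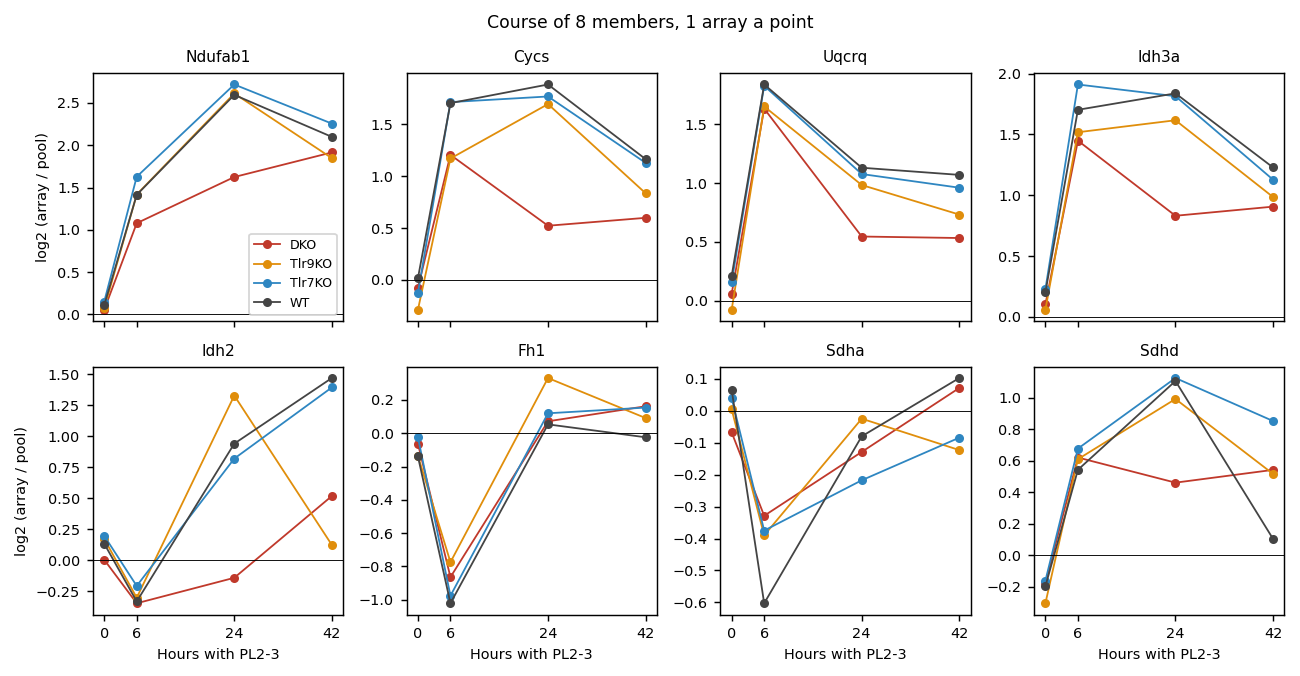
Level of 8 members on each array (log2 ratio to the pool, 1 array a point) against hours with PL2-3, with a line for each genotype. Ndufab1 keeps rising to 24 h, Uqcrq peaks at 6 h, Idh2, Fh1 and Sdha are lowest at 6 h, and in Cycs, Idh3a and Sdhd the double knockout is far below the other genotypes at 24 h.

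From 24 to 42 h 0 members rose and 4 fell (all genes 5.68% changed, 2.1% higher and 3.58% lower), and the median was -0.11. The 4 were Ndufab1 with -0.57 ± 0.09, Sdhd with -0.58 ± 0.14, Cycs with -0.74 ± 0.10 and Idh3a with -0.64 ± 0.09. None of them was called without WT, without the Tlr7 knockout, with the double knockout added, with the scanner's processed signals or with the authors' table, settings in which 0, 0, 0, 2 and 4 of all genes were called. Without the Tlr9 knockout 5 fell (all genes 12.6%) and 2 rose (13.4%). Over the step from 6 to 24 h 3 members rose without WT (all genes 5.2%) and 4 without the Tlr7 knockout (5.67%), against 11 with all 3 genotypes (14.2%), so the members' calls and those of all genes dropped together.

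Promoters were read to see what letters the members share. RefSeq promoter windows of GRCm38.p6, from 250 bases before to 50 bases after each start, were found for 34 of the 44 members. The consensus motif of the transcription factor NRF1, whose letters stand in capitals in the stretches below, was searched on both strands and was present in 8 of the 34 (23.5%: Atp5c1, Atp5o, Ndufa5, Ndufa8, Ndufs6, Sdha, Sdhd and Uqcrc1), against 5.19% of 27025 gene symbols. The motif CCGGAAGT, of ETS factors such as GABP, was in Dlst and Ndufs3, 2 of 34 (5.88%), against 4.31% of symbols. Member windows were richer in G and C, with a median of 58.9% against 52.8%, so these shares are not matched on base composition. A letter match is a description and shows no binding. The stretches before the start of 5 of these genes are shown because their transcripts took different courses, with the motif in capitals.
Sdha (chr13:74350241-74350348, strand -): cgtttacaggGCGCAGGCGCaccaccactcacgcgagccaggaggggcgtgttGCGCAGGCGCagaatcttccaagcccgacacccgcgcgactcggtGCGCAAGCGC
Sdhd (chr9:50603909-50603938, strand -): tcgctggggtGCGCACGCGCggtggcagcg
Ndufa8 (chr2:36049349-36049378, strand -): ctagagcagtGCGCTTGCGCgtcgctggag
Atp5c1 (chr2:10080433-10080459, strand -): ctgagctcccGCGCACGCGCactgagt
Ndufs6 (chr13:73328483-73328508, strand -): cgactgctgtGCGCCTGCGCcggcac
Sdha holds the motif 3 times, beginning at bases -98, -55 and -10 from the start, and was the subunit that fell at 6 h. Sdhd, with the motif at -79, rose at 6 and 24 h. Ndufa8 (at -30) and Atp5c1 (at -17) were among the members that rose after 6 h, and Ndufs6 (at -16) had risen by 0.88 ± 0.10 at 6 h.

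The transcripts of mitochondrial DNA went the other way. Mitochondrial DNA encodes 13 subunits of complexes I, III, IV and V, and all 13 have a probe. At 6 h 13 of 13 were lower with a median of -1.38 (all genes 23.9% lower). At 24 h 12 were lower with a median of -1.75 (all genes 26%), and at 42 h 12 with a median of -1.20 (20.7%). COX1, the catalytic subunit of complex IV, read 0.16, -1.41, -1.72 and -2.23 in the double knockout, -0.18, -1.96, -2.45 and -1.68 in the Tlr9 knockout, 0.09, -2.00, -1.95 and -2.90 in the Tlr7 knockout and 0.10, -2.23, -2.01 and -1.86 in WT at 0, 6, 24 and 42 h. All 12 stimulated arrays lay below every 0 h array, and the 24 h difference was -2.14 ± 0.28 (adjusted p = 1.96e-04). ATP6, a complex V subunit, was at -2.13 ± 0.33. ND6, which alone of the 13 is read from the other strand of mitochondrial DNA, was at -0.28 ± 0.12 (adjusted p = 0.0899) at 24 h, with levels of 0.18, -0.68, -0.02 and -0.04 in the double knockout, 0.12, -0.42, 0.21 and -0.08 in the Tlr9 knockout, 0.33, -0.39, -0.11 and -0.03 in the Tlr7 knockout and 0.26, -0.29, -0.23 and -0.04 in WT. The probes of the strongest and the weakest of the 13 are shown, as their genes lie on opposite strands of the circle.
COX1 probe: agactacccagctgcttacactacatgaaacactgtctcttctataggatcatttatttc
ND6 probe: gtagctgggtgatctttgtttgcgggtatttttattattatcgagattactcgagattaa
In the double knockout the 13 had median changes of -1.28, -1.48 and -1.57 at 6, 24 and 42 h over its own 0 h array. With median centring the 24 h median was -0.46 and 5 were lower, with all genes at a median of 0.227 and 10.5% lower. In all 12 stimulated arrays the median of the nuclear members stood above the pool and that of the mitochondrially encoded subunits below it.

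**Figure D4:**
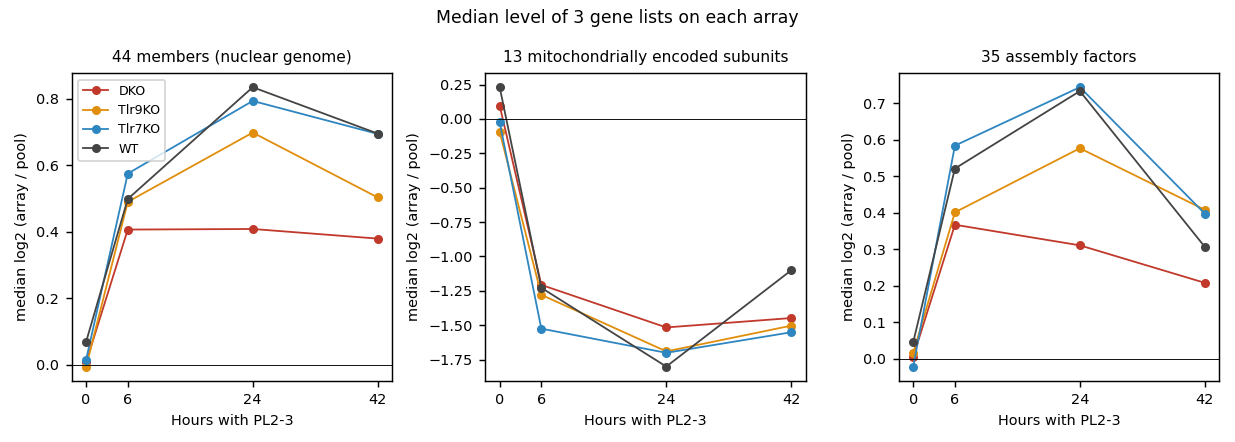
Median level (log2 ratio to the pool) of the 44 members, the 13 mitochondrially encoded subunits and 35 tested assembly factors on each array, against hours with PL2-3, with a line for each genotype. On every stimulated array the members' median is 0.38 or higher and that of the mitochondrially encoded subunits is -1.10 or lower.

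The rest of the pathway was read from lists. Over all genes 22.7% were higher and 26% lower at 24 h, which is the share to set beside each list here. Of 46 other nuclear subunits 23 were higher and 6 lower at 24 h, with a median of 0.38. The early rise of the members was not seen in this list. Its median level at 0 and 6 h was 0.02 and 0.001 in the double knockout and 0.03 and 0.08 in the Tlr9 knockout. It was 0.05 and 0.15 in the Tlr7 knockout and 0.12 and 0.10 in WT. In the same order the members' median levels were 0.008 and 0.41, -0.005 and 0.49, 0.02 and 0.57, and 0.07 and 0.50. The largest rises were Ndufa12 with 1.33 ± 0.09 and Ndufc2 with 1.24 ± 0.19, both of complex I. Complex I subunits were also among the 6 lower, with Ndufa6 at -0.51 ± 0.08, Ndufb11 at -0.47 ± 0.11 and Ndufb10 at -0.37 ± 0.14. The largest falls were Cox6a2, the heart and muscle isoform of a complex IV subunit, with -3.49 ± 0.12 (adjusted p = 1.54e-07), and Cox7a2l, a protein that joins complexes III and IV in supercomplexes, with -1.44 ± 0.12 (adjusted p = 1.06e-05). Of 35 assembly factors tested 25 were higher and 1 lower with a median of 0.56. Tmem70, which helps build the c ring of complex V, rose by 2.63 ± 0.14 (adjusted p = 1.52e-06), Ndufaf2, a complex I assembly factor, rose by 1.62 ± 0.12, and Timmdc1, another, was at -1.10 ± 0.15. Of 30 other cycle and entry enzymes tested 18 were higher and 4 lower, led by the citrate carrier Slc25a1 with 2.01 ± 0.16 and the pyruvate dehydrogenase kinase Pdk3 with 1.65 ± 0.20. The falls were led by its relative Pdk2 with -0.78 ± 0.11 and the oxoglutarate carrier Slc25a11 with -0.75 ± 0.10.

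Of 23 regulators of mitochondrial biogenesis tested, 7 were higher and 6 lower at 24 h, with a median of -0.05. Across all genes 22.7% were higher and 26% lower, so these counts lay near the share of all genes. Tefm, the elongation factor of mitochondrial transcription, and Twnk, the helicase of mitochondrial DNA, rose by 1.28 ± 0.19 and 1.12 ± 0.13. Polg, the polymerase that copies mitochondrial DNA, and the deacetylase Sirt1 fell, with -0.75 ± 0.08 and -0.71 ± 0.13. The transcription factors Nrf1 and Tfam, named after their values were seen for their roles at the motif above and on mitochondrial DNA, were at -0.42 ± 0.12 (adjusted p = 0.02) and -0.66 ± 0.13 (adjusted p = 0.0026). In the same list Tfb1m and Tfb2m rose, with 0.90 ± 0.09 (adjusted p = 4.57e-05) and 0.44 ± 0.14 (adjusted p = 0.0261). Gabpa and Gabpb1, of GABP, were not called, with 0.09 ± 0.09 and -0.19 ± 0.13.

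In the double knockout 37, 39 and 41 of 44 members were above their own 0 h level at 6, 24 and 42 h, with smaller medians. These counts are given without the share of all genes. Over its own 0 h array the members' median was 0.37 at 6 h, 0.38 at 24 h and 0.31 at 42 h. Its array was the lowest of the 4 genotypes for 9 of 44 members at 0 h (all genes 24.9%), for 27 at 6 h (28.3%), for 35 at 24 h (33.2%) and for 32 at 42 h (24.2%). In a fit of the 12 stimulated arrays that also held a term for time, 40 of 44 estimates were below those of the other genotypes. The median was -0.24 over the members and -0.003 over all genes. No member passed the threshold (0 of 44, all genes 0%), and the lowest adjusted p among members was 0.119. At an unadjusted p under 0.05, 27 members were lower and 0 higher, while 19.1% of all 22966 genes had such a p. With a coefficient for each genotype, a fit added after the data were seen, 306 genes were called, none of them a member. With median centring the median was -0.72 over the members and -0.137 over all genes. The median level of the B-cell markers at 6, 24 and 42 h was -2.17, -1.48 and -1.77 in the double knockout, -2.25, -2.18 and -1.36 in the Tlr9 knockout, -2.37, -2.38 and -1.76 in the Tlr7 knockout and -2.50, -2.43 and -1.85 in WT. The double knockout stood apart at 24 h and not at 42 h, and the part of these markers in the result was not tested.

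**Figure D5:**
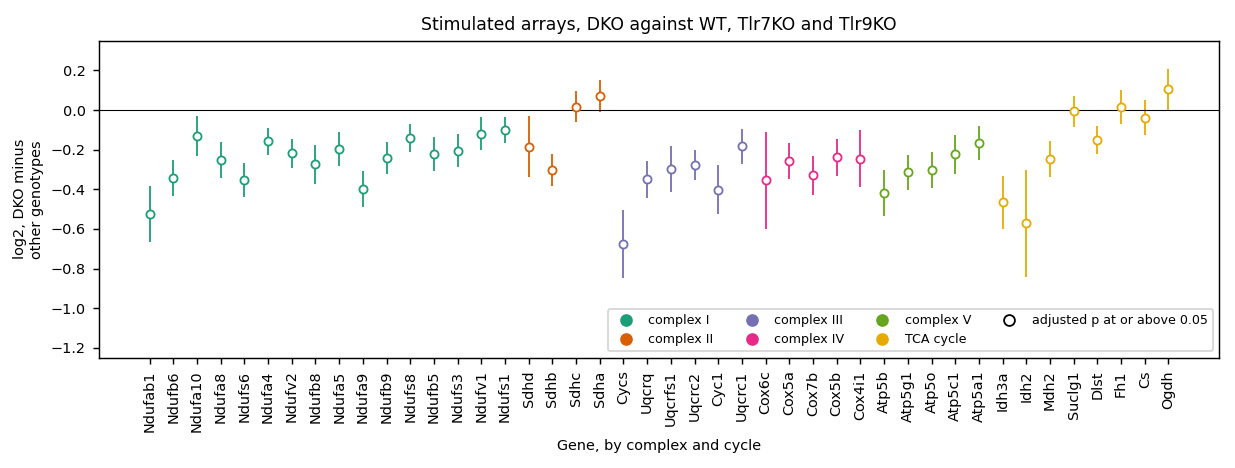
Difference of each member between the double knockout and the other genotypes over the stimulated arrays, as log2 with its SE, coloured by complex or cycle. Of 44 points 40 lie below 0, and all are open because none passed an adjusted p of 0.05.

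The largest single difference was that of Cycs, -0.68 ± 0.17 (adjusted p = 0.119), followed by Idh2 with -0.57 ± 0.27 and Ndufab1 with -0.53 ± 0.14. At 24 h Cycs read 0.52 in the double knockout, against 1.70 in the Tlr9 knockout, 1.77 in the Tlr7 knockout and 1.89 in WT. By class the medians were -0.32 for complex III, -0.30 for complex V, -0.26 for complex IV, -0.22 for complex I, -0.10 for the cycle and -0.08 for complex II. Sdha, Sdhc, Fh1 and Ogdh were the 4 with an estimate above 0, from 0.02 ± 0.09 for Fh1 to 0.10 ± 0.10 for Ogdh. For the 13 mitochondrially encoded subunits the median was 0.07.

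Within a slide, the double knockout against the Tlr9 knockout gave 41 of 44 estimates below 0 and a median of -0.16 (all genes 0.008). None was called (0 of 44, all genes 0.0435%, 0.00871% higher and 0.0348% lower), and 8 members were lower at an unadjusted p under 0.05. The change from 0 h itself was compared over all 16 arrays: 39 of 44 responses were smaller or more negative in the double knockout. The median was -0.20 over the members and -0.003 over all genes. None of these differences was called either (0 of 44, all genes 0.0384%, 0.0128% higher and 0.0256% lower, 4 members at an unadjusted p under 0.05). The lowest adjusted p, 0.391, was that of Ndufv2 with -0.62 ± 0.14, whose double knockout array at 0 h read 0.44 against 0.02 in the Tlr9 knockout, -0.02 in the Tlr7 knockout and 0.10 in WT. For Cycs the difference of the responses was -0.73 ± 0.32 (adjusted p = 0.598). With 1 array a group, these tests count the spread between times or genotypes as error.

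Loss of a single receptor gave no call among the members. The Tlr9 knockout against WT gave a median of -0.10 and 0 of 44 calls (all genes 0.0566%, 0.0261% higher and 0.0305% lower), with 2 members at an unadjusted p under 0.05. With median centring that median was -0.73, against -0.275 over all genes. The Tlr7 knockout against WT gave a median of 0.00, 0 of 44 calls (all genes 0.00435%) and 0 members at an unadjusted p under 0.05.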

How the data were processed

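RNA of 16 samples was read on 16 two-colour arrays, extracted with Trizol and a column kit, per the labels' protocols. The authors scanned and extracted the arrays with Agilent Feature Extraction 10.1.1.1, per the file headers, and deposited mean and background intensities of both colours per spot. Their series-wide values hold, per the deposited files, the log10 ratio of processed signals: 100% of spots lay within 0.002 of the scanner's own ratio, and array medians ran from -0.145 to 0.022. Its ratio is Cy5 over Cy3 and it was not centred further.

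Intensities were corrected with normexp (offset 50), normalised within arrays by loess with control spots at weight 0, and expressed as log2 of Cy5 over Cy3 from the deposited intensities. Outlier spots were left out, spots of a probe averaged, and the brightest probe of a gene used, if well above background in either colour on 3 or more arrays. Of 62976 spots 3671 were controls and 0 were saturated. Tests used limma 3.58.1 in R 4.3.3, with lmFit and eBayes, adjusted by Benjamini-Hochberg over all genes with a threshold of 0.05. The response fits had a genotype term over WT, the Tlr7 knockout and the Tlr9 knockout. The double knockout fit had a time term and 1 term for that genotype. With 1 array a group, the number of arrays limits the precision, and p-values measure the spread between genotypes or times. On simulated data for the 24 h response (22387 genes, 200 changed) 74% of changes of 1 and 22% to 24% of changes of 0.5 on the log2 scale were recovered. In the data 48.7% of genes were called at 24 h, a far larger share than was changed here. The adjustment depends on that share, so these rates do not carry over to the fit of the data.

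In each class the 2 members with the largest and the 1 with the smallest 24 h response are shown on every array (all 4 of complex II), and in the other lists the 2 largest called rises and falls at 24 h. The members and lists were chosen with earlier results of these data known. Alternatives were median centring, no background correction, the scanner's processed signals, the authors' table, no filter on dim probes, the mean over probes, all 16 arrays, slide as a block and leaving out each genotype. The level of 1 marker gene is not reported here.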

Additional observations from a re-analysis of the deposited data

Results flagged for a closer look

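Cyc1 moved in opposite directions from 0 h in the Tlr9 knockout and the other genotypes. Its mean change over the stimulated arrays was -0.52 in the Tlr9 knockout, against 0.83 over the other genotypes. Its levels at 0, 6, 24 and 42 h were -0.33, 0.72, 0.10 and 0.15 in the double knockout, 1.04, 0.82, 0.47 and 0.27 in the Tlr9 knockout, -0.25, 0.93, 0.88 and 0.66 in the Tlr7 knockout and 0.06, 0.95, 0.89 and 0.62 in WT. The 0 h array of the Tlr9 knockout was the highest of the 16 arrays for Cyc1, and on the stimulated arrays all 4 genotypes lay above 0. This difference between genotypes was not tested.

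Cox4i1 was lower than at 0 h on every stimulated array of the double knockout, with a mean of -0.0372, and higher in every other genotype, with a mean of 0.273. The opposite directions themselves were not tested, and the difference of the responses over all 16 arrays was -0.31 ± 0.28 (adjusted p = 0.83).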

How the results depend on the processing

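No paired analysis was possible because the labels carry no replicate numbers, beyond the genotype term of the response fits, which sets each array against its own genotype's 0 h array, and the time term of the double knockout fit. The counts of members higher at 24 and 42 h kept their direction throughout and moved most with the scale. With median centring 41 members were higher and 0 lower at 6 h, 0 were lower from 6 to 24 h and 33 were lower from 24 to 42 h, where the median of all genes was -0.22 and 20.7% of them were lower. That setting moved the median of all genes by 0.228, 0.221 and 0.0801 at 6, 24 and 42 h, and put 75.7%, 77% and 58.5% of all called genes on the higher side, against 49%, 46.6% and 45.6%. It also took the Tlr9 knockout against WT to a member median of -0.73, with all genes at -0.275. With the scanner's processed signals 16, 25 and 19 members were higher at 6, 24 and 42 h, and 0 were lower from 24 to 42 h. With the authors' deposited values 0 were lower over that last step, and without background correction 2 were. With the mean over probes 2 were lower at 24 h, 1 at 42 h and 2 from 6 to 24 h, and Atp5g1 turned to -0.29 at 24 h (adjusted p = 0.0467). With all 16 arrays 5 were lower from 6 to 24 h and 0 from 24 to 42 h.

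Leaving out 1 genotype gave 20 to 28 members higher and 1 to 3 lower at 6 h, and 28 to 38 higher at 24 h. It gave 20 to 36 higher at 42 h (20 without the Tlr7 knockout), 3 to 11 higher from 6 to 24 h, and 0 to 5 lower with 0 to 2 higher from 24 to 42 h. With the slide as a block the double knockout's median was -0.16 and 0 members were called. Each left-out fit assumes that the remaining genotypes vary alike, and dim probes carry the least signal over background.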
